A study of Mus musculus with 20 samples.

Results

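Penk, Hbegf, Tfpi, Dkk3 and Islr encode signalling peptides, growth factors, inhibitors and surface proteins that fibroblasts release or carry on their surface. These 5 genes of the 10625 tested were chosen by their values on the arrays described here, as genes whose transcripts differed between 2 lines of mouse fibroblasts. Penk, Tfpi and Islr were higher in unheated cells without heat shock factor 1, and Dkk3 and Hbegf were lower. Their differences between the lines are therefore given as a description, with no test, and only their changes under heat were tested. Only transcripts were measured, so nothing here bears on the amount of protein released.

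Cells without the gene (HSF1 -/-, called KO) and cells with it (HSF1 +/+, called WT) were heat shocked and sampled over time on 20 spotted arrays. Each genotype had 3 arrays at 0 h and 1 array each at 0.5, 1, 2, 3, 4, 6 and 8 h. The times of 0.5 to 2 h formed an early window (n = 3 arrays) and those of 3 to 8 h a late window (n = 4 arrays), and the spread within a window includes change over time. Every array set the sample (Cy5) against 1 common pool (Cy3), a mixture of mRNA of unheated fibroblasts and of fibroblasts after 1 h of heat. A level below is the deposited log ratio of sample over pool, taken as log2, less the median ratio of the same array. These medians ran from -0.526 to -0.179, so a level of 0 is the middle value of the array and not that of the pool. Since each level rests on a ratio to the pool, levels of different genes cannot be ranked. The labels do not say how many independent lines or cultures stand behind each genotype, so the p-values rest on a spread between arrays that may be technical, and the genotype cannot be told apart from other differences between the lines.

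Heat shock factor 1 is the transcription factor that is released from its chaperones when proteins unfold, forms trimers and switches on chaperone genes through repeated GAA units in their promoters. Secreted and shed factors of fibroblasts set the composition of the surrounding matrix, blood clotting at wounds and the growth of neighbouring cells. Penk is the precursor of the enkephalins, Hbegf a ligand of the EGF receptor, Tfpi the inhibitor of the first step of clotting, Dkk3 a divergent relative of the Wnt antagonists, and Islr the leucine-rich repeat surface protein also called meflin.

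The arrays held 39037 to 42220 values each, and r between any 2 arrays, taken across probes, lay between 0.423 and 0.805. The late KO arrays had the narrowest spread of values, with a median absolute deviation of 0.460 to 0.574, against 0.542 to 0.758 for the KO arrays at 0 h. No probe listing Hsf1 alone was used here, so the deleted gene itself was not examined. The inducible chaperone gene Hspa1a rose by 5.83 ± 0.75 (log2, SE) late in WT cells (adjusted p = 0.00184, limma) and had a change of -0.01 ± 0.75 in KO cells (adjusted p = 0.999). Xist, which is transcribed from the inactive X chromosome, was lower in KO cells at 0 h (KO minus WT -3.31 ± 0.23, adjusted p = 2.52e-07), so the lines also differed apart from the heat response. Of the fibroblast markers, 9 of 13 were tested and 3 differed between the unheated lines, with 2 of them higher in KO cells and 1 lower. At 0 h, 2 of 7 tested macrophage markers and 1 of 3 smooth muscle markers were lower in KO cells, and 0 of 6 epithelial and 0 of 4 endothelial markers differed, against 6.64% of all genes. Under heat, the macrophage marker Fcgr1 fell in WT cells early (-1.59, adjusted p = 0.0383 by limma) and late (-1.41, adjusted p = 0.00380), and Lyz2 rose late in KO cells (0.66, adjusted p = 0.0451). The fibroblast markers Col1a2 (-0.59, adjusted p = 0.0293, late in KO cells) and Pdgfra (-0.63, adjusted p = 0.0483, late in WT cells) fell. These were 1 of 7 macrophage and 1 of 9 fibroblast markers in each late window, against 10.7% of all genes in KO and 7.27% in WT cells, and 1 of 7 macrophage markers early in WT cells, against 0.0376%. The other marker lists had 0 passing genes under heat. The markers that passed were named after their values were seen. Ratios to a pool of fibroblasts show no absolute marker level, and the part of such cells in the results was not tested. In bulk RNA, fewer cells of a type and less RNA per cell cannot be told apart.

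Heat shock factor 1 reads GAA units and their inverse TTC. The promoters of Islr and Tfpi are shown because only these 2 of the 5 genes had a window that was searched. Penk and Dkk3 had no promoter entry, and Hbegf was not searched. The sequences are windows of 300 bases around a start site, from RefSeq on GRCm38.p6, both genes on the minus strand, with every GAA and TTC in capitals. The Islr window lies at chr9:58158505-58158804. The Tfpi windows belong to 2 start sites, at chr2:84476710-84477009 (window 1) and chr2:84474125-84474424 (window 2).
Islr: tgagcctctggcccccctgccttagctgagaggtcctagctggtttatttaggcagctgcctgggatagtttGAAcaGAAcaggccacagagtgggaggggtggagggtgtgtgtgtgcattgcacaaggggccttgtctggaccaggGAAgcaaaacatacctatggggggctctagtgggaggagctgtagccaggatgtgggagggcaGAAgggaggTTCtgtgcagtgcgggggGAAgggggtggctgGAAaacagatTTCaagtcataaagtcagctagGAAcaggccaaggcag
Tfpi window 1: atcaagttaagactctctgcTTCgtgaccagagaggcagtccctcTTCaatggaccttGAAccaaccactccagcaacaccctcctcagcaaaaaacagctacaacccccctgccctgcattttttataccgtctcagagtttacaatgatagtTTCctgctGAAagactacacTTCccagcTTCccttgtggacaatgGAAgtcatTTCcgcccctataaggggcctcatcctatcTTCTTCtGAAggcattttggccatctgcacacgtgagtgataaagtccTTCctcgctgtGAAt
Tfpi window 2: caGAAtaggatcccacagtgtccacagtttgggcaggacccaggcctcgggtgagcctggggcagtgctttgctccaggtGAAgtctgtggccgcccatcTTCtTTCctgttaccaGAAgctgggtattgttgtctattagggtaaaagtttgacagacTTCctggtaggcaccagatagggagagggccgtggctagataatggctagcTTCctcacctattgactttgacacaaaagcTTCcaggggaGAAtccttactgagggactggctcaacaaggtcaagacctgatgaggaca
The Islr window held 9 GAA or TTC units, and the Tfpi windows held 14 and 9, against a median of 10 (quartiles 7 and 13) over all 32851 windows of 300 bases in the table. The paired arrangements GAANNTTC and TTCNNGAA, each its own reverse complement and searched at every position, matched 0 times in the windows of these 2 of the 5 genes. GAANNTTC was present in 7.86% and TTCNNGAA in 8.52% of all windows. Among the chaperone genes used as a check, the windows of Hspa1a and Hspa1b each held 1 GAANNTTC, and the 2 windows of Dnajb1 held 0.

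At 0 h the 3 KO and the 3 WT arrays did not overlap for any of the 5 genes. The same held for 25.5% of the 9459 genes measured on all 20 arrays, and 6.64% of the 10625 genes passed limma's test between the lines at 0 h (adjusted p under 0.05). Both figures describe a comparison that chose the genes. The difference at 0 h, KO minus WT, was 3.77 ± 0.43 for Penk (log2, SE, n = 3 arrays each), the widest of all 10625 genes. It was 2.53 ± 0.26 for Tfpi, 1.49 ± 0.21 for Islr, -2.42 ± 0.26 for Dkk3 and -2.23 ± 0.36 for Hbegf. These correspond to 13.6-fold, 5.78-fold and 2.81-fold higher levels and to 5.34-fold and 4.68-fold lower levels in KO cells.

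**Figure D1:**
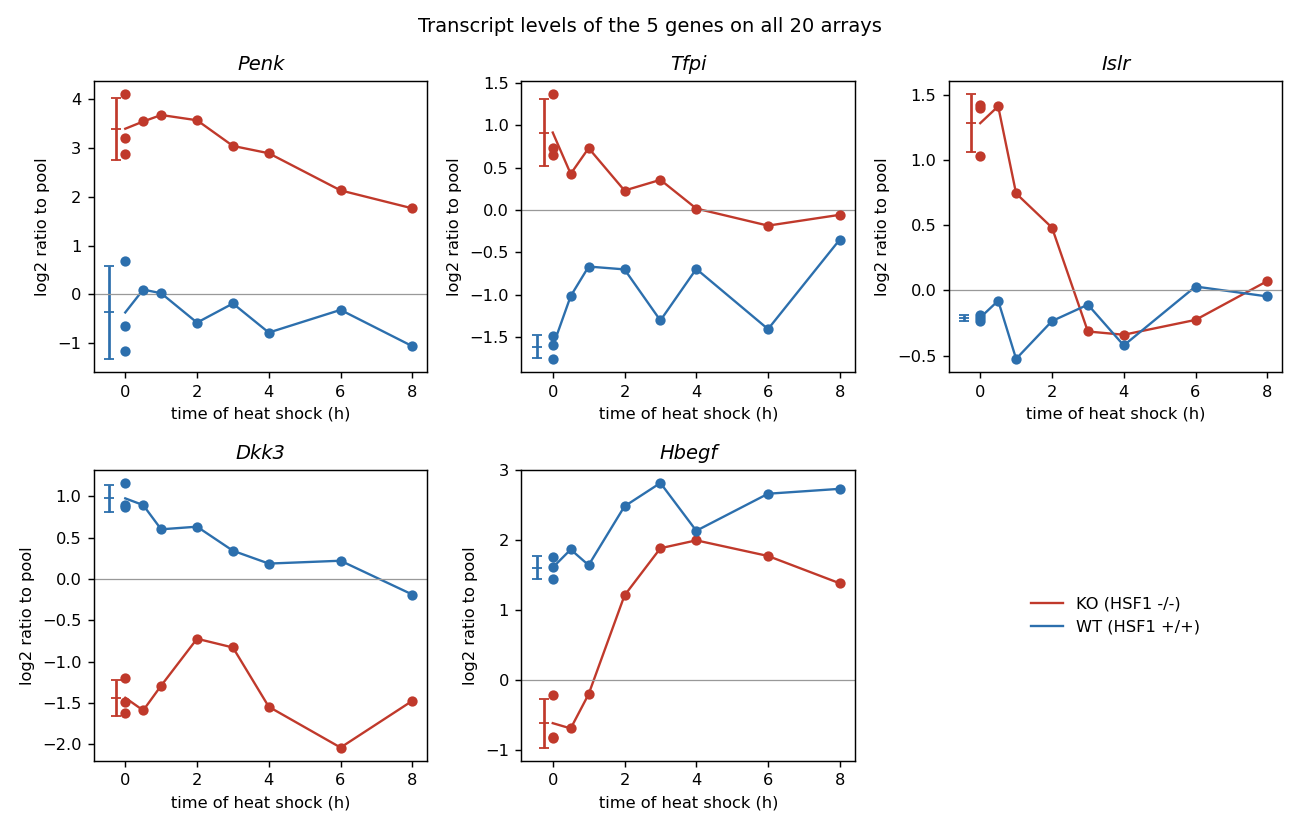
Level of each gene (log2 ratio to the common pool, array median set to 0) on every array against time of heat shock in hours, KO in red and WT in blue, with the mean ± SD of the 3 arrays at 0 h as a bar beside the points. Penk kept the KO arrays (1.76 to 4.10) above the WT arrays (-1.16 to 0.69), while the lines meet for Islr at 3 to 8 h.

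Hbegf, the membrane-anchored growth factor that is shed as a soluble EGF receptor ligand, rose late in KO cells and had the largest heat change of the 5 genes. In KO cells it stood at -0.83, -0.22 and -0.82 at 0 h, at -0.70, -0.21 and 1.21 at 0.5, 1 and 2 h, and at 1.88, 1.99, 1.77 and 1.38 at 3, 4, 6 and 8 h. In WT cells it stood at 1.62, 1.44 and 1.76 at 0 h, at 1.86, 1.64 and 2.48 at 0.5, 1 and 2 h, and at 2.82, 2.13, 2.66 and 2.73 at 3, 4, 6 and 8 h. The KO arrays up to 1 h lay below a level of 0, the array at 2 h lay above it, and every late KO array lay above every KO array at 0 h. The late change in KO cells was 2.38 ± 0.34 (log2, SE), a 5.20-fold rise with an adjusted p of 0.000602 by limma. The late change in WT cells was 0.98 ± 0.34, with an adjusted p of 0.0877, although all 4 late arrays lay above the 3 arrays at 0 h. That value passed with arrays scaled to 1 spread (1.22, adjusted p = 0.0423) and without the KO array at 2 h (adjusted p = 0.0222), within a range of adjusted p over its alternatives of 0.0222 to 0.456. The difference of the late changes, KO minus WT, was 1.40 ± 0.48 (95% interval 0.39 to 2.41) and did not pass (adjusted p = 0.439).

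From lowest to highest, the Hbegf levels were -0.62 ± 0.35 in KO cells at 0 h, 0.10 ± 0.99 in early KO cells, 1.61 ± 0.16 in WT cells at 0 h, 1.76 ± 0.27 in late KO cells, 1.99 ± 0.44 in early WT cells and 2.59 ± 0.31 in late WT cells (SD, n = 3, 3, 3, 4, 3 and 4 arrays). Only early KO cells and WT cells at 0 h had ranges that did not overlap among neighbours in this order. The late KO arrays (1.38 to 1.99) overlapped those of unheated WT cells (1.44 to 1.76). The KO array was the lower one at each of the 7 heated times, with KO minus WT at -2.56, -1.85, -1.27, -0.93, -0.14, -0.89 and -1.35 at 0.5, 1, 2, 3, 4, 6 and 8 h. The difference was narrowest at 4 h and wider again at 6 and 8 h.

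Islr, a surface protein that marks mesenchymal stromal cells, fell late in KO cells to levels that overlapped those of WT cells. In KO cells it stood at 1.40, 1.03 and 1.42 at 0 h, at 1.41, 0.74 and 0.48 at 0.5, 1 and 2 h, and at -0.32, -0.34, -0.23 and 0.07 at 3, 4, 6 and 8 h. In WT cells it stood at -0.19, -0.21 and -0.23 at 0 h, at -0.08, -0.53 and -0.24 at 0.5, 1 and 2 h, and at -0.11, -0.42, 0.03 and -0.05 at 3, 4, 6 and 8 h. All 4 late KO arrays lay below all 3 KO arrays at 0 h, and every WT array lay within -0.53 and 0.03. The late change was -1.49 ± 0.20 in KO cells (log2, SE), a 2.80-fold fall with an adjusted p of 0.000499 by limma, and 0.07 ± 0.20 in WT cells (95% interval -0.35 to 0.49, adjusted p = 0.857). The difference of the late changes was -1.56 ± 0.28, with an adjusted p of 0.0438. That call was lost on leaving out 1 array in 16 of 20 cases (adjusted p of 0.0511 to 0.147) and kept without the KO or the WT array at 0.5 or 2 h, and the adjusted p over its 29 alternatives ran between 0.00762 and 0.344.

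From highest to lowest, the Islr levels were 1.28 ± 0.22 in KO cells at 0 h, 0.88 ± 0.48 in early KO cells, -0.14 ± 0.20 in late WT cells, -0.20 ± 0.19 in late KO cells, -0.21 ± 0.02 in WT cells at 0 h and -0.28 ± 0.23 in early WT cells (SD). Early KO cells and late WT cells were the only neighbours in this order whose ranges did not overlap. KO minus WT averaged 1.16 over the early times and -0.07 over the late times, and the KO level was the higher one at 5 of the 7 heated times.

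Penk, the precursor of the opioid peptides Met- and Leu-enkephalin, stayed far above the WT level in KO cells at every time. In KO cells it stood at 3.21, 2.88 and 4.10 at 0 h, at 3.54, 3.68 and 3.57 at 0.5, 1 and 2 h, and at 3.04, 2.89, 2.13 and 1.76 at 3, 4, 6 and 8 h. In WT cells it stood at -0.64, -1.16 and 0.69 at 0 h, at 0.10, 0.02 and -0.58 at 0.5, 1 and 2 h, and at -0.19, -0.78, -0.32 and -1.06 at 3, 4, 6 and 8 h. The KO arrays at 6 and 8 h were the lowest of that line, and the 3 arrays at 0 h spread over more than 1 log2 unit in each line. The late change was -0.94 ± 0.40 in KO cells (adjusted p = 0.150 by limma, 95% interval -1.78 to -0.09) and -0.22 ± 0.40 in WT cells (adjusted p = 0.778). Over its 28 alternatives the late KO change lay between -1.20 and -0.37 and passed in 0. The KO arrays at 6 and 8 h had narrow spreads of values, with median absolute deviations of 0.475 and 0.460. The early changes were 0.20 ± 0.43 and 0.22 ± 0.43 in KO and WT cells (adjusted p = 0.950 and 0.886). KO minus WT was 4.15 at 2 h and 2.45 at 6 h, the widest and narrowest of the heated times.

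From highest to lowest, the Penk levels were 3.60 ± 0.07 in early KO cells, 3.39 ± 0.63 in KO cells at 0 h, 2.46 ± 0.61 in late KO cells, -0.15 ± 0.37 in early WT cells, -0.37 ± 0.95 in WT cells at 0 h and -0.59 ± 0.41 in late WT cells (SD). Only late KO cells and early WT cells had ranges that did not overlap among neighbours in this order.

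Tfpi, the Kunitz-type inhibitor of the complex of tissue factor and factor VIIa, fell late in KO cells, and in WT cells its heated arrays all lay above those at 0 h. In KO cells it stood at 0.73, 0.65 and 1.37 at 0 h, at 0.43, 0.73 and 0.23 at 0.5, 1 and 2 h, and at 0.36, 0.02, -0.19 and -0.06 at 3, 4, 6 and 8 h. In WT cells it stood at -1.49, -1.60 and -1.76 at 0 h, at -1.02, -0.67 and -0.70 at 0.5, 1 and 2 h, and at -1.31, -0.70, -1.41 and -0.35 at 3, 4, 6 and 8 h. The KO array was the higher one at all 7 heated times, with KO minus WT at 1.45, 1.40, 0.93, 1.66, 0.71, 1.22 and 0.29 at 0.5, 1, 2, 3, 4, 6 and 8 h, so the difference varied from time to time without a steady course. The late change in KO cells was -0.88 ± 0.24 (1.84-fold lower, adjusted p = 0.0264 by limma). It did not pass without centring (-0.82, adjusted p = 0.0838), without the KO array at 0 h numbered 3 (-0.66, adjusted p = 0.144), the KO array at 0 h numbered 1 (adjusted p = 0.0552) or the KO arrays at 6 h (adjusted p = 0.0771) and 8 h (adjusted p = 0.0681), within a range over its alternatives of 0.0153 to 0.403.

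In WT cells the Tfpi change was 0.82 ± 0.26 early (adjusted p = 0.279 by limma, unadjusted p = 0.00578) and 0.67 ± 0.24 late (adjusted p = 0.100). The differences of the changes, KO minus WT, were -1.27 ± 0.37 early (adjusted p = 0.578) and -1.56 ± 0.34 late (adjusted p = 0.137). From highest to lowest, the Tfpi levels were 0.92 ± 0.39 in KO cells at 0 h, 0.46 ± 0.25 in early KO cells, 0.03 ± 0.23 in late KO cells, -0.80 ± 0.19 in early WT cells, -0.94 ± 0.50 in late WT cells and -1.62 ± 0.14 in WT cells at 0 h (SD). The ranges of neighbours did not overlap between late KO and early WT cells, nor between late WT cells and WT cells at 0 h.

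Dkk3, the secreted glycoprotein of the Dickkopf family, was low in KO cells throughout as the mean of its 2 probes, and fell late in WT cells. In KO cells it stood at -1.63, -1.20 and -1.49 at 0 h, at -1.59, -1.29 and -0.72 at 0.5, 1 and 2 h, and at -0.83, -1.55, -2.04 and -1.48 at 3, 4, 6 and 8 h. In WT cells it stood at 0.89, 0.87 and 1.16 at 0 h, at 0.90, 0.60 and 0.63 at 0.5, 1 and 2 h, and at 0.34, 0.19, 0.22 and -0.19 at 3, 4, 6 and 8 h. All 4 late WT arrays lay below the other 6 WT arrays, while the late KO arrays lay on either side of the KO arrays at 0 h. The late change was -0.03 ± 0.24 in KO cells (95% interval -0.55 to 0.48, adjusted p = 0.955 by limma) and -0.84 ± 0.24 in WT cells (1.78-fold lower, adjusted p = 0.0468). The WT call was lost on leaving out 1 array in 14 of 20 cases (adjusted p of 0.0518 to 0.130) and kept without the KO array at 0.5, 2, 3 or 6 h or the WT array at 0.5 or 3 h, within a range over its alternatives of 0.0256 to 0.292. The difference of the late changes was 0.80 ± 0.35 and did not pass (adjusted p = 0.551).

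From lowest to highest, the Dkk3 levels were -1.47 ± 0.50 in late KO cells, -1.44 ± 0.22 in KO cells at 0 h, -1.20 ± 0.44 in early KO cells, 0.14 ± 0.23 in late WT cells, 0.71 ± 0.16 in early WT cells and 0.98 ± 0.16 in WT cells at 0 h (SD). The ranges of neighbours did not overlap between early KO and late WT cells, nor between late and early WT cells. The KO array was the lower one at all 7 heated times.

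**Figure D2:**
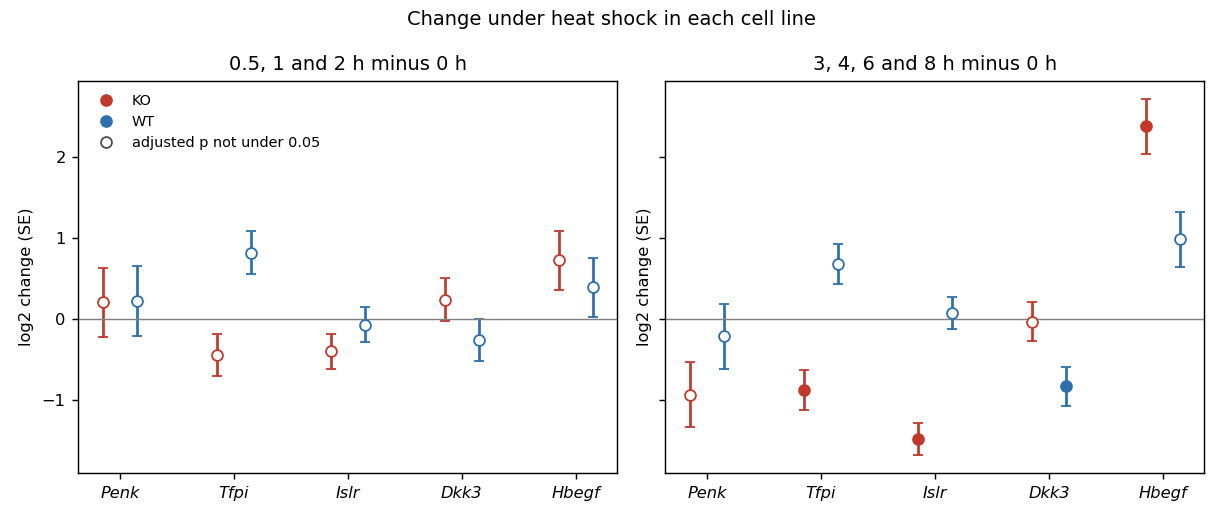
Change from 0 h (log2, mean ± SE of the limma fit over 20 arrays) in the early and the late window for each gene, KO in red and WT in blue, with filled points where the adjusted p was under 0.05. The filled points are Hbegf (2.38), Islr (-1.49) and Tfpi (-0.88) late in KO cells and Dkk3 (-0.84) late in WT cells.

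Over the late window, 3 of the 5 genes passed in KO cells (Hbegf higher, Islr and Tfpi lower), against 10.7% of all 10625 genes (3.86% higher and 6.80% lower). In WT cells 1 of 5 passed (Dkk3, lower), against 7.27% of all genes (3.67% lower). Early, 0 of 5 passed in KO cells, as for 0% of all genes, of which 793 had an unadjusted p under 0.05, and 0 of 5 passed in WT cells, against 0.0376% of all genes. The difference of the early changes passed for 0 of 5 genes and for 0% of all genes (889 with an unadjusted p under 0.05), and that of the late changes for 1 of 5 (Islr), against 0.0941% of all genes. With each gene taken as the mean of its probes, the late KO arrays did not overlap those at 0 h for Hbegf, Islr and Tfpi, and for 28.0% of the genes measured on all 20 arrays. In WT cells this held late for Hbegf, Tfpi and Dkk3 and for 20.2% of those genes, and early for Tfpi and for 13.8%.

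The changes under heat share the 0 h arrays with the comparison that chose the genes, so a value that is high or low by chance at 0 h would enter both. With the early arrays in place of those at 0 h, the late changes in KO cells were 1.66 for Hbegf (adjusted p = 0.0161 by limma), -1.08 for Islr (adjusted p = 0.0110) and -0.43 for Tfpi (adjusted p = 0.324), and that of Dkk3 in WT cells was -0.57 (adjusted p = 0.292). Hbegf and Islr in KO cells passed under each of the 28 alternatives run, with values of 1.66 to 2.79 and of -1.62 to -1.08. The heated arrays were also in view when the genes were chosen, and the early baseline was added after seeing the data. Neither baseline therefore frees these p-values from that choice.

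**Figure D3:**
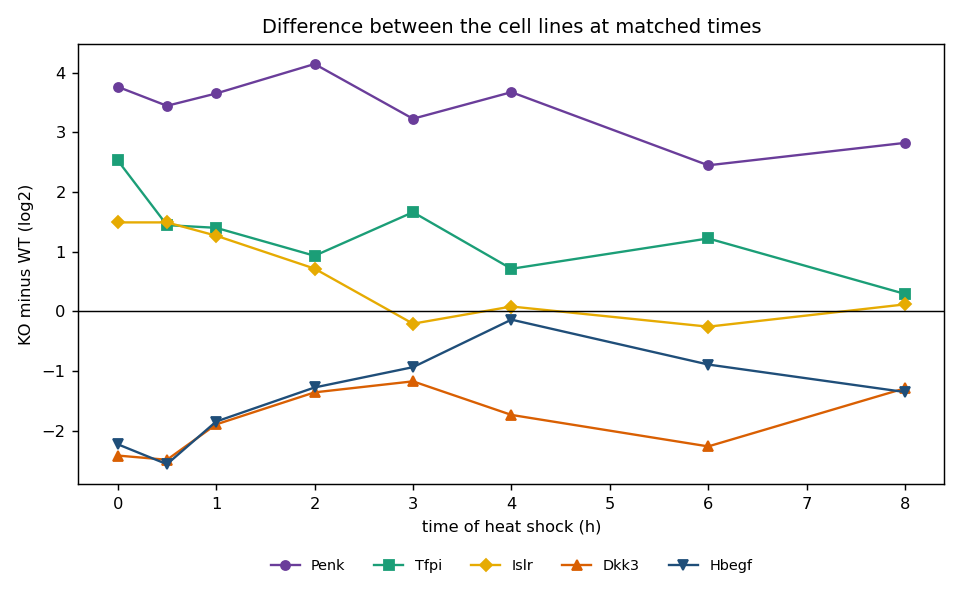
KO minus WT (log2) for each gene at each heated time in hours, 1 array per line and time, with the difference of the means of 3 arrays each at 0 h. Penk keeps the widest distance from 0, at 2.45 or more, while the Islr difference crosses 0 late.

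Between the lines, the sign of KO minus WT was the same at all 7 heated times for Penk, Tfpi, Dkk3 and Hbegf, and likewise for 12.1% of the 9459 genes measured on all 20 arrays. Of the difference at 0 h, 80.9% was left as a mean over the late times for Penk, 66.8% for Dkk3, 38.5% for Tfpi and 37.2% for Hbegf. For Islr the late mean had the opposite sign, at -4.39% of the 0 h difference. These are descriptions of arrays that were in view when the genes were chosen.

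Hbegf, Tfpi and Dkk3 were each read by 2 probes, and Penk and Islr by 1. The 2 Hbegf probes correlated with r = 0.912 over the 20 arrays, with 0.850 within KO and 0.870 within WT arrays, and gave late changes in KO cells of 2.08 and 2.68. The Dkk3 probes correlated with r = 0.862 (-0.01 within KO and 0.844 within WT arrays) and differed between the lines at 0 h by -2.46 and -2.38. Their changes in KO cells had opposite signs, at 0.72 and -0.25 early and at 0.21 and -0.28 late. On the KO array at 2 h they stood at 0.237 and -1.685. The Tfpi probes correlated with r = 0.462 (0.129 within KO and -0.19 within WT arrays), the lowest of the 3 pairs. They gave differences of 2.07 and 3.00 between the lines at 0 h, late changes in KO cells of -0.65 and -1.12, and late changes in WT cells of 1.42 and -0.07. The Tfpi fall in KO cells had the same sign on both probes, whereas the WT values disagreed. On probe 1 the late KO arrays (-0.981 to -0.274) overlapped the KO arrays at 0 h (-0.651 to 1.036), and on probe 2 they did not. With 1 probe per gene, the late KO change of Tfpi was -0.65, with an adjusted p of 0.403 by limma.

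**Figure D4:**
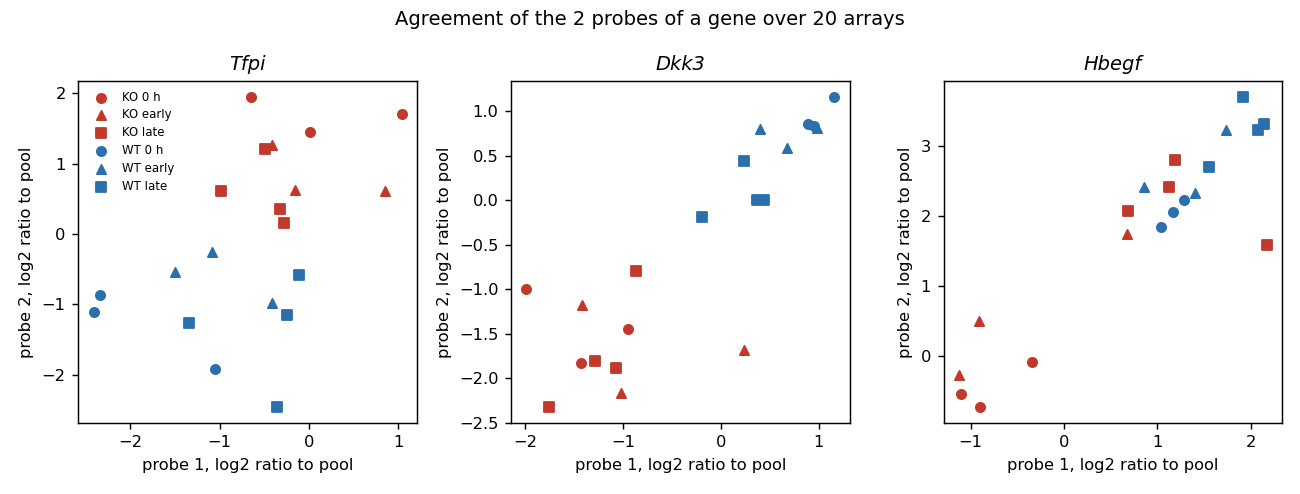
Level (log2 ratio to the common pool, array median set to 0) on 1 probe against the other for Tfpi, Dkk3 and Hbegf, 1 point per array, KO in red and WT in blue. The Hbegf points lie along a line within each genotype (r = 0.850 and 0.870 in KO and WT), and the Tfpi points do not (r = 0.129 and -0.19).

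Over the 20 arrays and 9458 other genes, the genes whose values ran most like each of the 5 were found by Pearson correlation of levels. The r values carry the difference between the lines, which all these arrays share, and are given as a description. Those most like Penk were Abi3bp (r = 0.973), Postn, which encodes the matrix protein periostin (0.960), and Cdo1 (0.957). For Tfpi they were Fah (0.942), Clmp (0.912) and the collagen VI gene Col6a2 (0.908). Islr ran most like S1pr3, a receptor of sphingosine 1-phosphate (0.909), Txnip, a thioredoxin-binding protein (0.902), and the lysosomal lipase gene Lipa (0.899). Dkk3 ran most like the corepressor gene Ctbp1 (0.970), Ppa1 (0.948) and Samhd1 (0.942). Hbegf ran most like the AP-1 gene Fosl1 (0.915), Nupr1 (0.904) and the chemokine gene Ccl2 (0.893). Among the 10 pairs of the 5 genes, r within the 10 KO arrays lay between -0.98 (Islr and Hbegf, named as the most extreme pair, with an r of 0.508 within WT arrays) and 0.784 (Penk and Tfpi, with an r of -0.33 within WT arrays).

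The neighbours of each gene in its pathway were taken from lists. Their counts stand beside shares of all genes of 6.64% at 0 h, 10.7% late in KO cells and 7.27% late in WT cells. For these genes too, the difference at 0 h and the change from 0 h share the 0 h arrays. A value that is high or low by chance at 0 h would enter both, and late changes against the early arrays are not given for them. Of 29 listed EGF receptor ligands, receptors and feedback genes, 13 were tested, with a median KO minus WT at 0 h of -0.02, against 0.05 over all genes. At 0 h 1 was higher and 1 was lower in KO cells: Tgfa, another ligand of the receptor, by 0.89 ± 0.26 (adjusted p = 0.0428 by limma), and Cd44, the hyaluronan receptor that can present Hbegf, at -0.86 ± 0.18 (adjusted p = 0.00782). Late in KO cells, Egr1, an immediate-early target of the receptor, rose to 2.74 ± 0.46, against -0.04 ± 0.33 at 0 h (SD, n = 4 and 3), a change of 2.79 ± 0.44 (SE, adjusted p = 0.000909). Cd9, a tetraspanin partner of the Hbegf precursor, fell there by 0.81 on the log2 scale (adjusted p = 0.00770), but had a change of -0.06 with 1 probe per gene and did not pass without the KO array at 0 h numbered 1 (adjusted p = 0.0519). The Cd44 difference did not pass without the WT array at 4 or at 8 h (adjusted p of 0.0625 to 0.0637). It held under 23 of 28 alternatives and was also lost with 1 probe per gene (adjusted p = 0.133), with only the arrays contrasted and with the replicate block. Late in WT cells, Errfi1, a feedback inhibitor of the receptor, rose by 1.04 ± 0.30 (adjusted p = 0.0423), a call lost in 12 of 20 cases on leaving out 1 array (adjusted p of 0.0503 to 0.193). The median late change of the list was 0.10 in KO and -0.10 in WT cells, against -0.02 in each over all genes.

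Of 14 listed genes of opioid peptides, their processing and receptors, 6 were tested, with a median of -0.05 between the lines at 0 h. Mme, the membrane protease neprilysin that degrades enkephalins, was higher in KO cells at 0 h by 1.32 ± 0.33 (adjusted p = 0.0212 by limma, with 2 of the 3 WT arrays measured). It did not pass without the KO array at 0 h numbered 1 or 3 (adjusted p of 0.0685 to 0.0743). It held under 21 of 25 alternatives and was also lost with the replicate block (adjusted p = 0.123) and with only the arrays contrasted. Ogfr, the receptor of Met-enkephalin as a growth factor, fell late in both lines, by 0.68 in KO cells (adjusted p = 0.00777) and by 0.98 in WT cells (adjusted p = 0.00269) on the log2 scale. Without the WT array at 4 or at 8 h, the Ogfr change in WT cells had an adjusted p of 0.0524 to 0.0589. The other 4 tested genes of the list passed in no contrast. The median late change was 0.14 in KO and -0.29 in WT cells.

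Of 21 listed genes of the start of clotting and its brakes, 12 were tested, with a median of -0.14 between the lines at 0 h. The anticoagulants Thbd (thrombomodulin, 1.19 ± 0.29, adjusted p = 0.0176 by limma) and Pros1 (protein S, 1.20 ± 0.29, adjusted p = 0.0189) were higher in KO cells at 0 h. The thrombin receptor F2r (-1.37 ± 0.20, adjusted p = 0.000462) and the protease F7 (factor VII, -1.07 ± 0.26, adjusted p = 0.0168) were lower. Late in KO cells 4 of the 12 fell and 0 rose: Pros1 by 1.07 (adjusted p = 0.0184), Thbd by 1.02 (adjusted p = 0.0210), Anxa2, a surface receptor of plasminogen, by 0.73 (adjusted p = 0.0443) and F2r by 0.70 (adjusted p = 0.0221). These 4 of 12 stand beside 6.80% of all genes that were lower there. In WT cells 0 of the 12 passed late, against 7.27% of all genes. At 0 h, the F7 call was lost without the KO array numbered 1 or 3 or the WT array numbered 2, and the Thbd call without the KO array numbered 3 or the WT array numbered 1 (highest adjusted p 0.0601 and 0.0705). They held under 24 and 26 of 28 alternatives, with an adjusted p of up to 0.0687 and 0.0705. The late Pros1 call was lost without the KO array at 0 h numbered 1 (adjusted p = 0.0920, the highest of its alternatives) and held under 24 of 27 alternatives. The late calls of Thbd, F2r and Anxa2 were not put through the alternatives. The median late change was -0.26 in KO and -0.06 in WT cells.

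Of 36 listed Wnt antagonists, ligands, receptors and targets, 16 were tested, with a median of -0.005 between the lines at 0 h. The secreted Wnt antagonist Sfrp2 stood at 2.47 ± 0.25 in KO and at 0.32 ± 0.57 in WT cells at 0 h (SD, n = 3 each), a difference of 2.15 ± 0.28 (SE, adjusted p = 0.000190 by limma). It fell late in KO cells by 1.51 (adjusted p = 0.00182) and had a change of -0.64 in WT cells (adjusted p = 0.151). The receptor gene Fzd8 was lower in KO cells at 0 h (-0.83, adjusted p = 0.0265) and fell late in both lines, by 0.83 in KO cells (adjusted p = 0.0140) and by 0.79 in WT cells (adjusted p = 0.0266). Myc, a target of the pathway, rose late in KO cells by 1.12 (adjusted p = 0.0398), but had a change of 0.25 with 1 probe per gene and lost the call in 8 of 20 cases on leaving out 1 array, each of the KO arrays at 0 h and late among them (highest adjusted p 0.151). The late Fzd8 call in KO cells was lost without the KO array at 0 h numbered 1 (adjusted p = 0.0910). The median late change was -0.05 in KO and 0.05 in WT cells.

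Of 31 listed leucine-rich repeat and BMP genes, 23 were tested, with a median of 0.22 between the lines at 0 h. Aspn (asporin, 2.08 ± 0.31, adjusted p = 0.000467 by limma) and Ogn (osteoglycin, 1.63 ± 0.35, adjusted p = 0.00787), small proteoglycans of the matrix, were higher in KO cells at 0 h, and Ogn fell there late by 1.15 (adjusted p = 0.0289). The Ogn difference at 0 h held under 27 of 28 alternatives and was lost with only the arrays contrasted (adjusted p = 0.0846). Smad7, which inhibits signalling by BMP and TGF-beta receptors, rose late by 1.59 in KO cells (adjusted p = 0.00473) and by 1.40 in WT cells (adjusted p = 0.0167). Late in KO cells Id2, a target of BMP signalling, also rose, by 1.12 (adjusted p = 0.0164). Late in WT cells the BMP antagonist Chrd rose by 2.73 (adjusted p = 0.00269), while the ligands Bmp4 (-1.17, adjusted p = 0.0236, measured on 3 of 4 late arrays) and Bmp6 (-0.68, adjusted p = 0.0296) fell. The late change of Chrd in KO cells was 0.14 (adjusted p = 0.890), and the difference of its late changes did not pass (-2.59, adjusted p = 0.192). The median late change of the list was -0.21 in KO and -0.47 in WT cells.

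None of the genes on these 5 lists passed limma's test in an early window or in a difference of changes. Tgfa, Anxa2, Id2, Bmp4 and Bmp6 were named after their values were seen, since the counts they belong to are small.

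**Figure D5:**
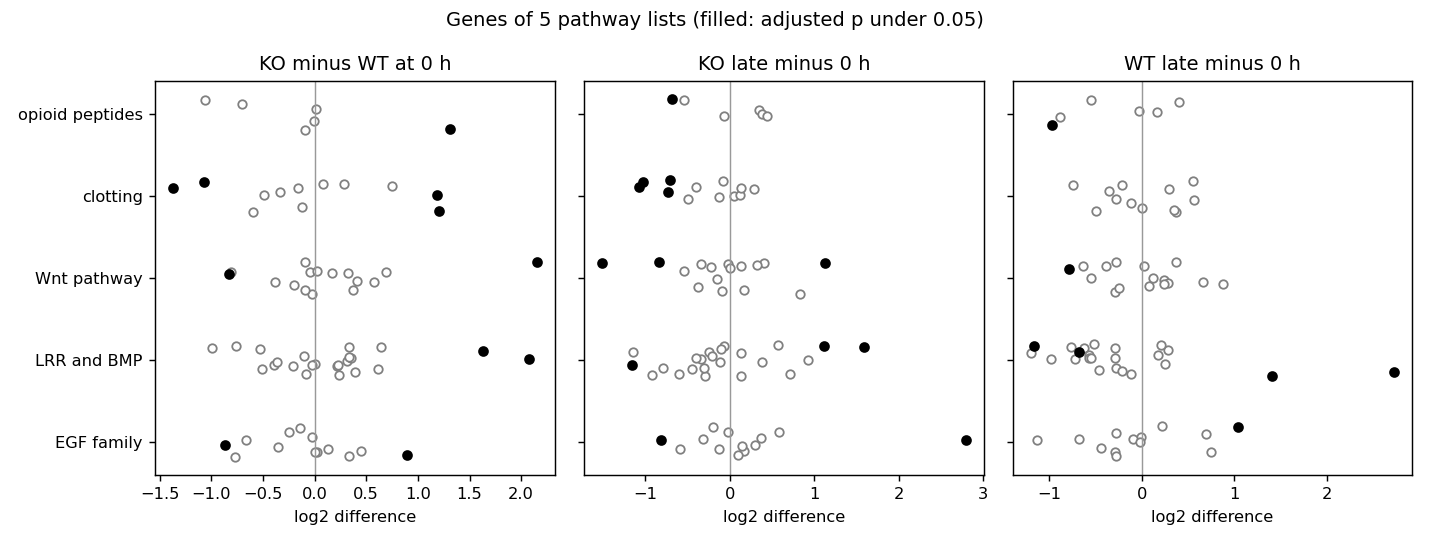
Difference or change (log2) of every tested gene of the 5 lists in 3 comparisons, KO minus WT at 0 h, late change in KO cells and late change in WT cells, with filled points for an adjusted p under 0.05 and vertical scatter without meaning. Filled points lie on both sides of 0 in most lists, among them Sfrp2 (2.15) at 0 h and Egr1 (2.79) late in KO cells.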

How the data were processed

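The submitters deposited 1 log ratio per probe and array, and the deposited values were taken as log2. Per the labels, Cy5 held the sample and Cy3 the pool. No source used here gives the base of the logarithm. Values reached 10.2 in size, above the 4.82 that a log10 ratio of scanner signals can reach, so base 10 was set aside. Were the base natural, the folds would be too small. Background correction and normalization within arrays are not given in the sources used here, and spot intensities were not used. Of 42624 probes, 3.28% of values were missing. By the platform table, 21701 probes listed 1 gene, 1124 several and 19799 none, and only the first kind was used.

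The median of each array was set to 0. A probe needed 2 or more values per group, which left 20881 probes for 10625 genes. A gene's value was the mean of its probes relative to each probe's own mean. With limma 3.58.1 (R 4.3.3), 1 linear model per gene with 6 group means was fitted over the 20 arrays (lmFit, eBayes, prior df 3.36), with two-sided p-values adjusted by Benjamini-Hochberg over the 10625 genes and a threshold of 0.05. Tested on simulated data, the fit recovered 51% of genes shifted by 1 and 90% of those shifted by 2 (log2) late in KO cells, and 23% and 77% for the difference of the late changes.

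The 5 genes and the lists were chosen with earlier results of these data known. Beside the 5, the text names the 3 genes most correlated with each, up to 4 passing genes per list by smallest adjusted p, Hspa1a, Hspa1b, Dnajb1 and Xist. The labels number the arrays at 0 h without saying whether the numbers pair the lines. Same-numbered KO and WT arrays had deviations correlated at r of -0.01 to 0.01. With 3 arrays per line at 0 h, this cannot show whether the samples were paired. Alternatives were no centring, quantile normalization, scaling, 1 probe per gene, complete probes, only the arrays contrasted, a replicate block, no 0.5 h arrays, leaving out each array and, chosen after seeing the data, early arrays in place of those at 0 h. The replicate block matched KO and WT arrays by replicate number at 0 h and by time under heat.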

Additional observations from a re-analysis of the deposited data

Results flagged for a closer look

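As the mean of its 2 probes, Tfpi lay below the 0 h mean of KO cells and above that of WT cells on every heated array. Single probes did not all follow: probe 2 stood at -2.46 in WT cells at 6 h, against a mean of -1.30 at 0 h. The same 0 h means entered the comparison that chose the gene. Against the early arrays, the late change in WT cells was -0.14 (adjusted p = 0.842 by limma). The differences of the changes, KO minus WT, were -1.27 early and -1.56 late on the log2 scale. By limma neither difference passed (adjusted p = 0.578 and 0.137), and its probes gave late WT changes of 1.42 and -0.07.

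Islr had a late change that differed between KO and WT cells by -1.56 on the log2 scale (adjusted p = 0.0438 by limma). It fell in KO cells on all 4 late arrays, against a WT change of 0.07. The difference passed under 7 of its 29 alternatives, and with the replicate block its adjusted p was 0.154.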

How the results depend on the processing

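Of 835 tested values of the 5 genes under the alternatives, 763 kept their direction and side of the threshold, 49 no longer passed, 2 newly passed and 21 changed sign, none of them past the threshold. Those that changed sign were Penk early in KO cells (-0.0395 with scaling, -0.0582 to 0.55 leaving out 1 array), Penk early and late in WT cells (-0.18 to 0.75 and -0.61 to 0.31), the Penk difference of early changes (0.14 with quantile normalization and 0.14 without 0.5 h, -0.55 to 0.38), Tfpi late in WT cells (-0.14 against the early arrays), Islr early in WT cells (0.12 uncentred, -0.17 to 0.0513), Dkk3 early in KO cells (-0.00267 to 0.43), Dkk3 late in KO cells (0.0328 uncentred, 0.21 with 1 probe per gene, -0.25 to 0.15) and the Hbegf difference of early changes (-0.22 to 0.73).

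Passing genes at 0 h between the lines (705) numbered 109 with only the arrays contrasted, 448 with the replicate block and 423 to 770 leaving out 1 array. Late in KO cells (1133) they numbered 1539 with quantile normalization, 1426 with scaling and 523 to 1284 leaving out 1 array. Late in WT cells (772) they numbered 462 with quantile normalization, 371 with scaling, 164 with only the arrays contrasted and 385 to 887 leaving out 1 array. Early in KO cells (0) they numbered 5 without 0.5 h and 0 to 6 leaving out 1 array. Early in WT cells (4) they numbered 1 uncentred, 2 with quantile normalization, 0 with scaling, 2 with 1 probe per gene, 2 with complete probes, 0 with only the arrays contrasted, 10 without 0.5 h and 0 to 18 leaving out 1 array. For the difference of early changes (0) they numbered 1 with complete probes, 5 without 0.5 h and 0 to 5 leaving out 1 array. For that of late changes (10) they numbered 0 uncentred, 1 with 1 probe per gene, 17 without 0.5 h and 0 to 18 leaving out 1 array. Of the 5 genes, those passing late in WT cells (1) numbered 0 uncentred, with quantile normalization, with 1 probe per gene, with only the arrays contrasted and against the early arrays, and 0 to 2 leaving out 1 array; with scaling the passing gene was Hbegf in place of Dkk3. Those passing in the difference of late changes (1) numbered 0 uncentred, with quantile normalization, scaling, 1 probe per gene, the replicate block and the early arrays, and 0 to 1 leaving out 1 array. Of 960 counts of passing list genes under the alternatives, 90 moved by over 1.5 times.

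With the replicate block, which matched the heated arrays of the lines by time, the Islr difference of late changes was -1.56. Its adjusted p was 0.154 by limma, and 0 genes passed for that difference. The arrays limit these results: 1 array per heated time, 3 at 0 h, and no spot intensities to show signal over background. The cause of each loss was not tested.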
